A study of Homo sapiens with 6 samples.

Results

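The BH3-only genes encode small proteins that start apoptosis at the mitochondrion, and 10 of them were examined: BCL2L11, BBC3, PMAIP1, BID, BAD, BIK, BMF, HRK, BNIP3 and BNIP3L. A probe set, the group of oligonucleotides on an array that reads one transcript, was taken when its annotation named only one of these genes. This gave 26 probe sets for 9 of the 10 genes, out of 54613 probe sets and 19775 genes in all. BBC3 (PUMA) was not analysed here, because its 1 probe set also names microRNA genes. BCL2L11 had 7 probe sets, HRK 5, BID and BAD 3 each, PMAIP1, BNIP3 and BNIP3L 2 each, and BIK and BMF 1 each.

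RNA came from T47D, an established luminal breast cancer line, grown in DMEM with added serum, glutamine and non-essential amino acids. On 3 arrays it came from cells given GDC-0941, an inhibitor of the class I PI3 kinases, for 6 hours at a labelled dose of 1 mM, and on 3 arrays from control cells whose agent is labelled as none. The dose is printed as labelled and its unit is uncertain, since a micro sign may have been lost. The labels do not say whether controls received the solvent or whether replicates were separate cultures, so each p-value reflects only the variation among these arrays of 1 line, and that variation may be technical.

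Proteins of this family carry the BH3 stretch, a short helix that fits the groove of BCL2 and its survival relatives and frees the pore formers BAX and BAK1. BCL2L11 (BIM), BID and BBC3 can also engage the pore formers directly, whereas BAD, PMAIP1 (NOXA), BMF, BIK and HRK mainly occupy survival proteins. BNIP3 and BNIP3L (NIX) have a divergent BH3 stretch and are best known as receptors for the removal of mitochondria by autophagy. PI3 kinase signalling acts on the family at several points: AKT phosphorylates BAD, which is then held by 14-3-3 proteins, and AKT keeps FOXO factors, activators of BCL2L11 transcription, out of the nucleus.

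The family did not move one way. BMF and BNIP3L were higher in GDC-0941 cells and PMAIP1, BID and BAD lower, by 1.35 to 1.80 times. BCL2L11 passed the test as higher on some of its probe sets, while its brightest did not pass. Of the 26 probe sets, 6 rose and 7 fell at an adjusted p under 0.05 in limma, a linear model with moderated variances, and 13 did not pass. Over all probe sets 18.8% passed, 8.88% higher and 9.89% lower. The 3 GDC-0941 arrays lay wholly above or below the 3 control arrays in 17 of the 26, against 34.3% of all probe sets. Probe sets of a gene are repeated readings of it and not separate observations. Those that rose belong to BCL2L11, BNIP3L and BMF, and those that fell to BID, PMAIP1 and BAD. With each gene represented by its brightest probe set (the highest mean over the 6 arrays), 2 of 9 genes rose, 3 fell and 4 did not pass, against 27.8% of all genes passing, 12.1% higher and 15.6% lower. The groups did not overlap in 6 of the 9 genes, against 41.5% of all genes. By brightest probe set the 9 genes had a median level of 9.01, against 7.36 over all probe sets. Genes above 7.36 passed more often than all genes did. Of these 13217 genes, tested among themselves, 2474 rose and 3328 fell. The median log2 difference was 0.03 over the 9 genes and -0.02 over all genes, and the median size of the difference regardless of sign was 0.43 over the 9 genes and 0.10 over all genes. In RNA from whole cultures, fewer cells with a transcript and less transcript per cell cannot be told apart.

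**Figure D1:**
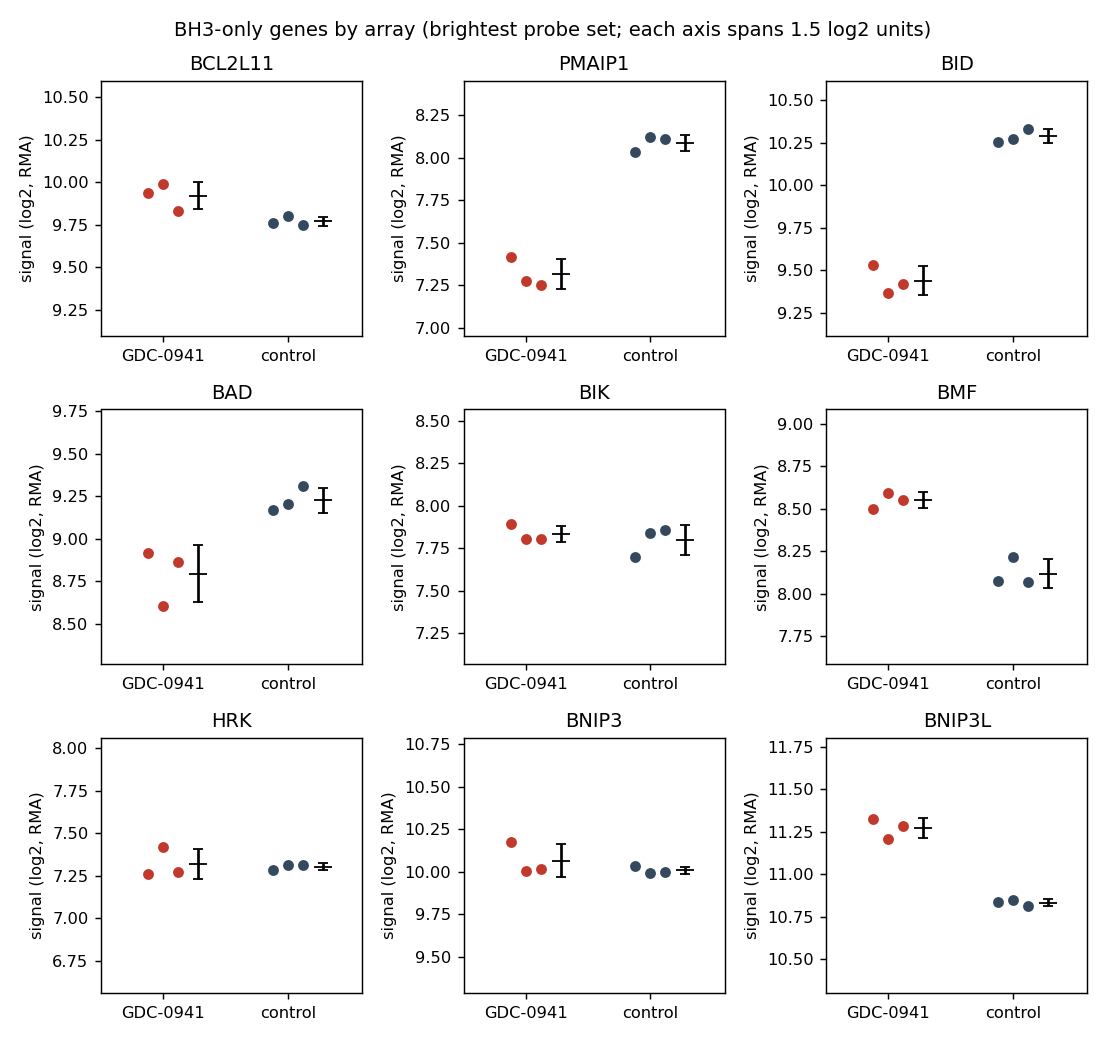
Signal of the brightest probe set of each of the 9 measured BH3-only genes, on a log2 scale, for each of the 3 GDC-0941 arrays (left, red) and 3 control arrays (right, dark), with mean and SD as black bars. PMAIP1, BID and BAD lie lower and BMF and BNIP3L higher in GDC-0941 cells with no overlap, and the arrays of BIK, HRK and BNIP3 overlap.

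Values below are log2 RMA signals, and a difference is GDC-0941 minus control on the log2 scale with its standard error from limma and an adjusted p over all 54613 probe sets. RMA makes the arrays' overall distributions alike, so directions are relative to the other transcripts. When these RMA values were further centred on the added hybridisation controls, the median over all genes moved to 0.15 from -0.02. The 5 genes called by their brightest probe set kept direction and call. Means of the hybridisation controls, themselves RMA values, were 10.65 to 10.86 on GDC-0941 arrays and 10.90 to 10.94 on control arrays. The array medians were 7.34 to 7.38. The brightest probe sets of 10 markers of luminal breast cells, among them ESR1, PGR, GATA3, KRT8 and KRT18, had means of 11.89 to 14.27. Their log2 signals summed to 133.36 to 133.78 on GDC-0941 arrays and 132.56 to 132.81 on control arrays, without overlap, with PGR, FOXA1, CDH1 and XBP1 higher and KRT8 and KRT18 lower. Markers of other cells had means of 6.17 to 9.68 for 3 basal genes, 7.54 to 10.68 for 5 stromal genes and 6.12 to 9.19 for 4 blood genes. Log2 signals of the basal markers summed to 23.53 to 23.69 on GDC-0941 arrays and 24.17 to 24.21 on control arrays, with ACTA2 lower. Those of the stromal markers summed to 42.54 to 43.12 on GDC-0941 arrays and 42.03 to 42.57 on control arrays, with COL1A1 higher by 0.56 and no other passing; VIM (-0.17) and COL3A1 (-0.12) had differences of the other sign. The blood markers summed to 29.78 to 30.59 on GDC-0941 arrays and 30.15 to 30.76 on control arrays, with none passing, and no marker is listed at 0. The part of these markers in the results was not tested.

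BCL2L11 encodes BIM, which binds every main survival protein of the BCL2 family and is a textbook target of FOXO factors. The window from 250 bases before to 50 bases after its annotated start is shown because it holds, 223 bases before that start, the FOXO element GTAAACA, printed in capitals (RefSeq, GRCh38.p14, chr2:111120664-111120963, plus strand).
BCL2L11: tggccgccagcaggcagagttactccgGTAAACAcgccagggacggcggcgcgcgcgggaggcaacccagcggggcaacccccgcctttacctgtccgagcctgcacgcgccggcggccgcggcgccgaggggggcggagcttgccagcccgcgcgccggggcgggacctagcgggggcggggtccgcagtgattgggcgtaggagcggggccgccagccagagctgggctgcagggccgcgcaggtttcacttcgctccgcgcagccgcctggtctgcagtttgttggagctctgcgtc
Both strands were searched, and this element was present in 3.42% of the 35116 windows of this length in the RefSeq table. The E-box, the palindrome CACGTG, was searched in the same way and was present in 7.26%. No window of these genes holds both motifs. Among the 14 windows of 8 of the genes (BCL2L11, BBC3, PMAIP1, BID, BAD, BMF, HRK and BNIP3), the FOXO element was found in that of BCL2L11 alone, and the E-box in 4: 2 of the 5 of BID and those of BNIP3 and BBC3. The 2 BID windows overlap and hold the same E-box. A match is a run of letters and not a measured binding site.

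The 7 probe sets of BCL2L11 did not respond evenly. On 225606_at the signal was 9.25, 9.09 and 9.06 on the GDC-0941 arrays, against 8.53, 8.56 and 8.71 on the control arrays. All 3 GDC-0941 arrays lay above all 3 controls, and the transcript read by this probe set rose 1.45-fold, a difference of 0.53 ± 0.08 (SE, adjusted p = 0.000507 in limma). On 1558143_a_at the signal was 8.86, 8.93 and 8.62 on the GDC-0941 arrays, against 8.29, 8.30 and 8.41 on the control arrays. These groups did not overlap either, and the rise was 1.38-fold (difference 0.47 ± 0.08 SE, adjusted p = 0.00204 in limma). A weaker rise on 222343_at, with 7.16, 7.01 and 7.00 on the GDC-0941 arrays against 6.75, 6.66 and 6.96 on the control arrays, had a difference of 0.27 (adjusted p = 0.0446 in limma). That call was lost without any one array other than control replicate 3 (adjusted p 0.0706 to 0.178 in limma) and with the replicate number as a block (adjusted p = 0.0684 in limma). Quantile normalization once more (adjusted p = 0.0741 in limma) ended it too, and so did a fit limited to probe sets without a mark of matching several transcripts (adjusted p = 0.0523 in limma).

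The brightest BCL2L11 probe set, 1553088_a_at, had 9.94, 9.99 and 9.83 on the GDC-0941 arrays and 9.76, 9.80 and 9.75 on the control arrays. The groups did not overlap, but the difference of 0.15 (95% confidence interval 0.01 to 0.29) did not pass (adjusted p = 0.133 in limma). It passed after centring on hybridisation controls (difference 0.32, adjusted p = 0.0128 in limma). Its response was 0.38 smaller than that of 225606_at, a pair chosen after the values were seen, with an exact two-sided permutation p of 0.1, the smallest that 3 arrays against 3 allow. On 208536_s_at, at 5.50, 5.68 and 5.37 on the GDC-0941 arrays against 4.99, 5.36 and 5.36 on the control arrays, the difference of 0.28 did not pass (adjusted p = 0.104 in limma). The other two, 1553096_s_at and 1555372_at, had overlapping groups and differences of 0.02 (95% confidence interval -0.12 to 0.17) and 0.07 (-0.10 to 0.24). All 7 differences were positive, and 5 of the 7 had groups that did not overlap, against 34.3% of all probe sets. Of these 5, 1553088_a_at and 208536_s_at did not pass, and 222343_at and 208536_s_at had means below 7.36, the median of all probe sets. BIM is made in several splice forms, and the annotation used does not say which of them each probe set reads.

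**Figure D2:**
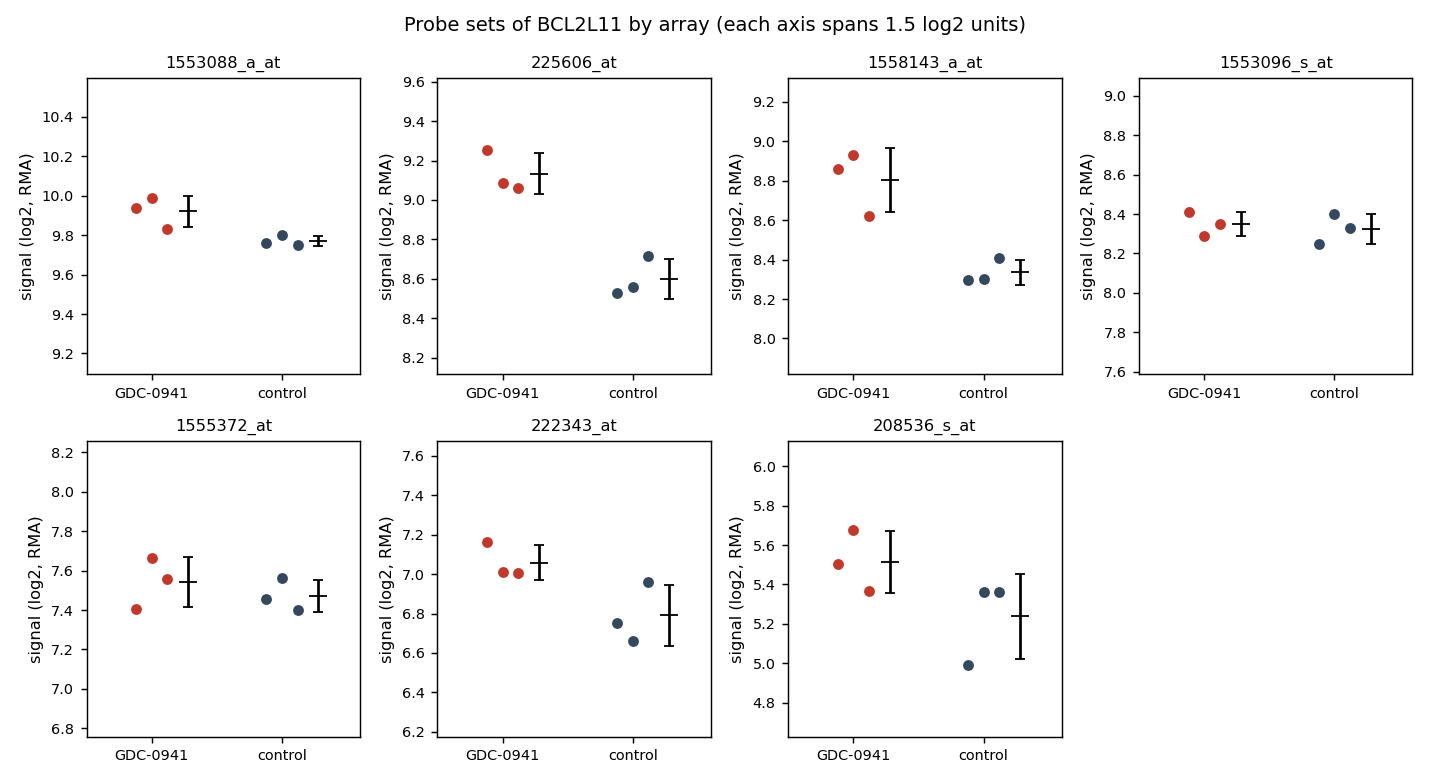
Log2 signal of the 7 BCL2L11 probe sets on the 3 GDC-0941 arrays (left in each panel, red) and 3 control arrays (right, dark), with mean and SD as black bars and axes of equal span. The GDC-0941 arrays stand above the controls by 0.53 on 225606_at and 0.47 on 1558143_a_at, and overlap them on 1553096_s_at and 1555372_at.

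BID, which caspase-8 cuts to a form that activates BAX and BAK1, had the largest change of the 9 genes. Its brightest probe set, 211725_s_at, had 9.53, 9.36 and 9.42 on the GDC-0941 arrays, against 10.26, 10.27 and 10.33 on the control arrays. The highest GDC-0941 array thus lay well under the lowest control, and BID was 1.80-fold lower (difference -0.85 ± 0.06 SE, adjusted p = 1.02e-05 in limma). Of all genes, 0.804% had a difference at least as large in either direction. The other probe sets fell as well. On 204493_at the signal was 8.51, 8.34 and 8.46 on the GDC-0941 arrays, against 9.18, 9.14 and 9.27 on the control arrays, a difference of -0.76 (adjusted p = 2.79e-05 in limma). On 227143_s_at it was 8.67, 8.54 and 8.56 on the GDC-0941 arrays, against 9.11, 9.15 and 9.29 on the control arrays, a difference of -0.59 (adjusted p = 0.000147 in limma). The groups overlapped on none of the 3.

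PMAIP1 encodes NOXA, which binds MCL1 above all and promotes its breakdown. On 204285_s_at it had 7.42, 7.28 and 7.25 on the GDC-0941 arrays, against 8.04, 8.12 and 8.11 on the control arrays. The groups were far apart, and PMAIP1 was 1.71-fold lower (difference -0.77 ± 0.07 SE, adjusted p = 2.05e-05 in limma). On 204286_s_at the signal was 5.82, 5.28 and 5.43 on the GDC-0941 arrays and 6.20, 6.32 and 6.41 on the control arrays, a difference of -0.80 ± 0.12 (SE, adjusted p = 0.000668 in limma). The spread among GDC-0941 arrays was wider there, with an SD of 0.28 against 0.11 among controls, and the groups still did not overlap. MCL1, its main partner, had 11.66 ± 0.10 in GDC-0941 cells and 11.78 ± 0.04 in control cells (SD, n = 3 each), a difference of -0.12 that did not pass (adjusted p = 0.195 in limma over genes); it was chosen after its value was seen.

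The start windows of the 2 genes that fell most are shown to set beside that of BCL2L11. They are RefSeq sequences of GRCh38.p14, at chr18:59899746-59900045 (plus strand) for PMAIP1 and chr22:17773934-17774233 (minus strand) for BID, which has 5 windows in the table. Capitals mark the E-box, 106 bases before the start in the BID window shown. Only 2 of the 5 BID windows hold it, this window among them. The PMAIP1 window holds neither motif.
PMAIP1: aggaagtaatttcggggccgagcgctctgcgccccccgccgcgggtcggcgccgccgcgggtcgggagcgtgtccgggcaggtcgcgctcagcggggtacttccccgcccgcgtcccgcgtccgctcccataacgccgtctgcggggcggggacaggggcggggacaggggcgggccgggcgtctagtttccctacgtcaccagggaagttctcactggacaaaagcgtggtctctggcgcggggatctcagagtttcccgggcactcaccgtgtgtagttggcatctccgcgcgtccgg
BID: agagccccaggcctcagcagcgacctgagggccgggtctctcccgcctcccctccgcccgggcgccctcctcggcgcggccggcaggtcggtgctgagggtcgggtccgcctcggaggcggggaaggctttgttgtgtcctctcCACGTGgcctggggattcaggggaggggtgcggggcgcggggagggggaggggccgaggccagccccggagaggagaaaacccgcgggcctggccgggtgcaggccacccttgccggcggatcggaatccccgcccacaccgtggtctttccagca

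BAD, the member that AKT phosphorylates, was lower on 2 of its 3 probe sets. On 209364_at it had 8.91, 8.60 and 8.87 on the GDC-0941 arrays, against 9.17, 9.21 and 9.31 on the control arrays. GDC-0941 replicate 2 was the lowest of the 6, and the groups did not overlap. BAD was 1.35-fold lower on this probe set (difference -0.43 ± 0.08 SE, adjusted p = 0.00388 in limma). On 1861_at, with 8.61, 8.50 and 8.56 on the GDC-0941 arrays and 8.99, 9.04 and 9.19 on the control arrays, it was 1.43-fold lower (difference -0.52, adjusted p = 0.000355 in limma). On 232660_at the groups overlapped, with 7.16, 7.04 and 7.12 on the GDC-0941 arrays against 6.81, 7.11 and 7.23 on the control arrays, and the difference of 0.06 (95% confidence interval -0.15 to 0.27) did not pass. The mean of 232660_at was 7.08, below 7.36, the median of all probe sets. Its response was set against that of 209364_at after the values were seen, and the responses differed by 0.49 with an exact two-sided permutation p of 0.1, the smallest possible here.

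BMF, which binds the dynein light chain DYNLL2 and is released when cells lose attachment, rose. Its 1 probe set, 226530_at, had 8.50, 8.59 and 8.55 on the GDC-0941 arrays, against 8.07, 8.22 and 8.07 on the control arrays. The lowest GDC-0941 array was above the highest control, and the rise was 1.35-fold (difference 0.43 ± 0.07 SE, adjusted p = 0.000827 in limma). A rise at least as large was seen in 3.35% of all genes. Neither of its 2 start windows holds the FOXO element or the E-box, which says only that these letters are absent there; the window at chr15:40108830-40109129 (minus strand, RefSeq, GRCh38.p14) is printed to set beside that of BCL2L11, and it has no capitals for that reason.
BMF: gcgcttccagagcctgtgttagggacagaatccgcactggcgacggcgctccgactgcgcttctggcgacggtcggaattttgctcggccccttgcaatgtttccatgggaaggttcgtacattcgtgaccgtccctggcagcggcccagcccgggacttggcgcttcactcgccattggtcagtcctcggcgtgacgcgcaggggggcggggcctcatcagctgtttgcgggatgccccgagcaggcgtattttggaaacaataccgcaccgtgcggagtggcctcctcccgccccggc

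BIK, which acts from the endoplasmic reticulum, had 7.89, 7.81 and 7.80 on the GDC-0941 arrays and 7.70, 7.84 and 7.86 on the control arrays. The groups overlapped, and the difference was 0.03 (95% confidence interval -0.11 to 0.18, adjusted p = 0.795 in limma). HRK (Harakiri), best known from neurons, had 7.26, 7.42 and 7.27 on the GDC-0941 arrays and 7.28, 7.32 and 7.31 on the control arrays by its brightest probe set, with a difference of 0.01 (95% confidence interval -0.13 to 0.15). None of its 5 probe sets passed, and their differences ran between -0.10 and 0.20. On 229552_at, which had the largest of these, the GDC-0941 arrays at 7.04, 7.29 and 7.16 lay above the controls at 7.03, 6.92 and 6.93 without passing (adjusted p = 0.087 in limma). That probe set did pass without GDC-0941 replicate 1 (adjusted p = 0.0334 in limma) and with hybridisation control centring (difference 0.37, adjusted p = 0.0033 in limma). All 5 HRK probe sets had means below 7.36, the median of all probe sets, as did 9 of the 26 over all members, and RMA gives no call of presence for them. BIK and BMF each rest on 1 probe set.

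Of the mitophagy receptors, BNIP3L rose and BNIP3 did not pass the test. BNIP3L had 11.33, 11.21 and 11.29 on the GDC-0941 arrays, against 10.84, 10.85 and 10.81 on the control arrays, by its probe set 221478_at. Each group was tight and the GDC-0941 arrays were all higher, a 1.36-fold rise (difference 0.44 ± 0.06 SE, adjusted p = 0.000432 in limma). On 221479_s_at, with 10.20, 10.05 and 10.19 on the GDC-0941 arrays and 9.78, 9.85 and 9.96 on the control arrays, the rise was 1.22-fold (difference 0.28, adjusted p = 0.0151 in limma). Leaving out GDC-0941 replicate 3 ended the call on this second probe set (adjusted p = 0.0651 in limma), and so did leaving out control replicate 1 (0.0618) or 2 (0.0542). BNIP3, a classic target of hypoxia-inducible factor, had 10.17, 10.01 and 10.01 on the GDC-0941 arrays and 10.03, 9.99 and 10.00 on the control arrays by 201849_at. The groups overlapped, and the difference was 0.06 (95% confidence interval -0.09 to 0.20, adjusted p = 0.645 in limma). By 201848_s_at BNIP3 had 8.94, 8.85 and 8.91 on the GDC-0941 arrays, all under the controls at 9.07, 9.04 and 9.12, and the difference of -0.18 did not pass (adjusted p = 0.0607 in limma). It passed with the arrays quantile normalized once more (adjusted p = 0.0324 in limma), with a variance trend and robust estimation (0.0348) and among probe sets above the median level (0.0197). A test of the difference between BNIP3L and BNIP3 was not made.

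**Figure D3:**
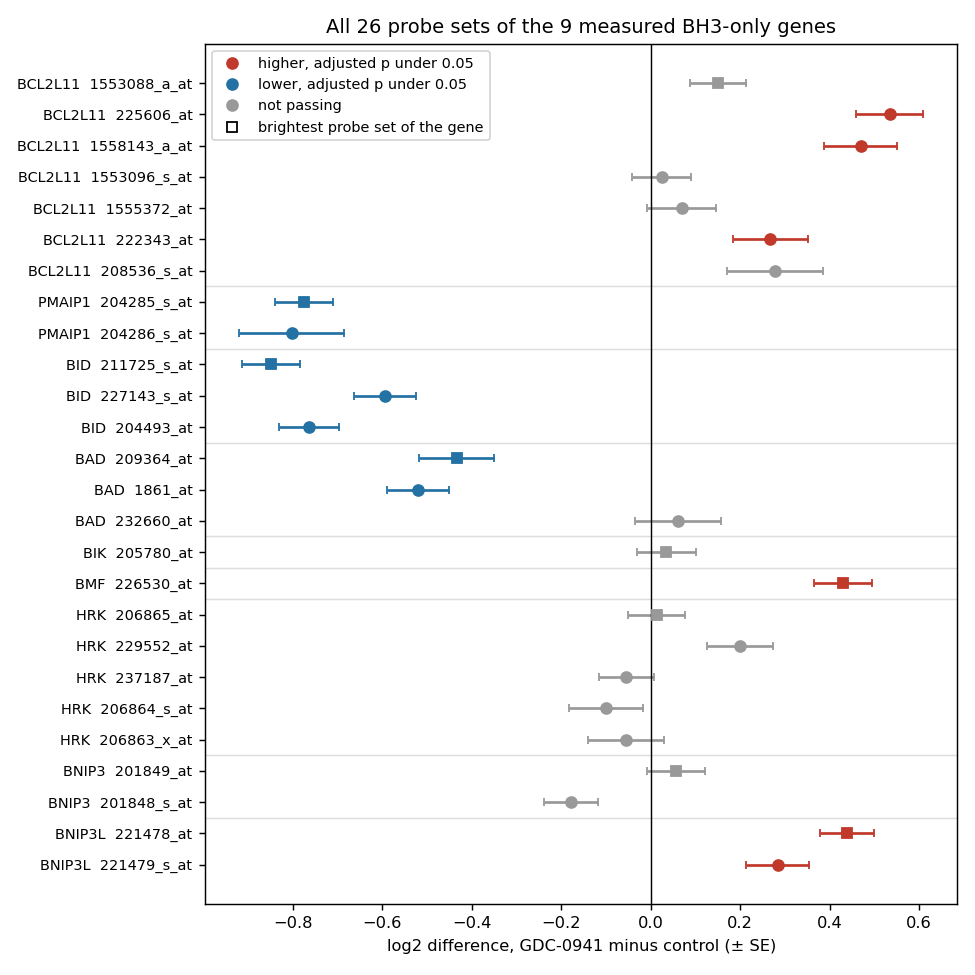
Log2 difference, GDC-0941 minus control, of the 26 probe sets (horizontal axis, bars are the standard error from limma), grouped by gene from top to bottom, with squares for the brightest probe set of a gene. Red marks the 6 that rose, blue the 7 that fell and grey the 13 that did not pass; BID and PMAIP1 lie furthest to the left, and 2 BCL2L11 probe sets furthest to the right.

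**Figure D4:**
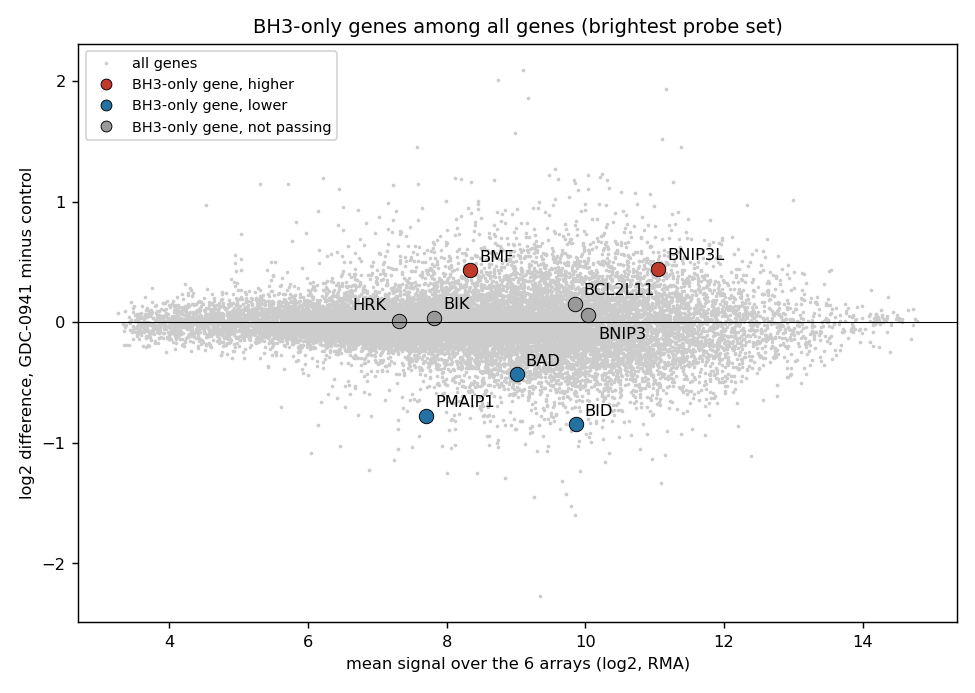
Mean log2 signal over the 6 arrays (horizontal axis) and log2 difference, GDC-0941 minus control (vertical axis), for all 19775 genes in grey and the 9 measured BH3-only genes in colour, each by its brightest probe set. BID at -0.85 and PMAIP1 at -0.77 lie near the lower edge of the cloud, while BIK, HRK and BNIP3 lie in its centre.

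Genes around the family were read from 8 lists holding 62 measured genes, of which 12 rose and 18 fell by their brightest probe set, with p-values adjusted over all 19775 genes. Of all genes 12.1% rose and 15.6% fell, with a median difference of -0.02, and each list's counts and median are set beside these. The list genes are brighter, with a median level of 9.94 against 7.36 over all probe sets. Among the 13217 genes above 7.36, tested among themselves, 2474 rose and 3328 fell, a larger share in both directions. In that test 14 genes of the lists rose and 20 fell. How far level accounts for the counts was not tested. With the arrays centred on hybridisation controls the split was 22 higher and 6 lower, so the balance of directions in these lists depends on the scaling.

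Of the 6 survival proteins that BH3-only proteins bind, 1 rose and none fell, with a median difference of -0.05. BCL2L2 (BCL-w) had 9.64, 9.48 and 9.57 on the GDC-0941 arrays, against 9.09, 9.12 and 9.28 on the control arrays, a 1.32-fold rise without overlap (adjusted p = 0.000918 in limma). Of the 3 pore formers, 2 fell and none rose: BOK by 0.66 and BAK1 by 0.33 on the log2 scale (adjusted p = 9.62e-06 and 0.00138 in limma). The BOK call was lost on its brightest probe set without a mark of matching several transcripts (difference -0.07, adjusted p = 0.456 in limma), and the BAK1 call with hybridisation control centring (difference -0.16, adjusted p = 0.171 in limma). BAX, named after its value was seen, differed by 0.01 (adjusted p = 0.932 in limma).

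In the cytosol, 5 of 9 partners that hold BH3-only proteins were lower and none higher, with a median difference of -0.31 (2 lower and none higher with hybridisation control centring). Of all genes 15.6% were lower and 12.1% higher. SFN (14-3-3 sigma) had 11.29, 11.24 and 11.24 on the GDC-0941 arrays, against 12.16, 12.15 and 12.26 on the control arrays, a 1.91-fold lower signal (difference -0.93, adjusted p = 9.21e-07 in limma). YWHAH and YWHAG, further 14-3-3 proteins, fell by 0.49 and 0.39 on the log2 scale (adjusted p = 8.32e-05 and 0.000232 in limma), and the YWHAG call was lost with hybridisation control centring (adjusted p = 0.06 in limma). The other 2 were the dynein light chains DYNLL1 and DYNLL2, the docks of BIM and BMF, named after their values were seen. Their differences were -0.38 and -0.31 (adjusted p = 0.000334 and 0.00563 in limma), and both calls were lost with hybridisation control centring.

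Among 11 genes of the apoptosome and caspases 1 rose and 3 fell, with a median difference of -0.13 (3 and 2 with hybridisation control centring). ENDOG, a mitochondrial nuclease, fell by 0.65, CYCS (cytochrome c) by 0.43 and CASP2 by 0.36 on the log2 scale (adjusted p = 1.74e-05, 0.000108 and 0.00121 in limma). The CASP2 call was lost with that centring (adjusted p = 0.106 in limma) and with the mean of its probe sets (adjusted p = 0.052 in limma). CASP8, which cuts BID and was named after its value was seen, rose 1.28-fold (difference 0.35, adjusted p = 0.00127 in limma). With unmarked probe sets first none of the 11 rose, so the CASP8 call was lost there. Of 5 inhibitor of apoptosis proteins 2 fell and none rose, with a median of 0.04 (2 rose and none fell with hybridisation control centring). These were BIRC5 (survivin, -0.24, adjusted p = 0.0118 in limma) and BIRC6 (-0.23, adjusted p = 0.0209 in limma), both of which lost the call with that centring (adjusted p = 0.534 and 0.621 in limma). The BIRC5 call was also lost with unmarked probe sets first or the mean of its probe sets (adjusted p = 0.157 and 0.0692 in limma). That of BIRC6 was lost without GDC-0941 replicate 2 or 3 or control replicate 1 or 2 (adjusted p 0.055 to 0.106 in limma).

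Of 9 transcription factors known to act on BH3-only genes, 3 rose and 4 fell, with a median difference of 0.16 (5 and 1 with hybridisation control centring), against 12.1% and 15.6% of all genes. The number that fell rests on single arrays: it was 2 without GDC-0941 replicate 2 or control replicate 1, and 1 without GDC-0941 replicate 3, control replicate 2 or control replicate 3. It was also 2 with the replicate block or with median centring, and 1 with unmarked probe sets first or an adjusted p under 0.01. FOXO3, an activator of BCL2L11, had 11.04, 10.96 and 11.00 on the GDC-0941 arrays, against 10.09, 10.08 and 10.06 on the control arrays (adjusted p = 7.24e-07 in limma), and DDIT3 (CHOP), another activator of BCL2L11, rose by 0.73 (adjusted p = 9.95e-06 in limma). E2F1, which drives entry into S phase and can activate BH3-only genes, had 9.25, 9.28 and 9.03 on the GDC-0941 arrays, against 9.83, 9.88 and 9.95 on the control arrays, a 1.63-fold fall (adjusted p = 3.22e-05 in limma).

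Of 11 mitophagy receptors and ATG8 proteins 3 rose and 1 fell, with a median difference of -0.02 (5 and none with hybridisation control centring). The number that rose was 2 without any one array other than GDC-0941 replicate 2. It was also 2 with the replicate block, median centring or an adjusted p under 0.01. Quantile normalization once more gave 4, as did a variance trend and robust estimation. MAP1LC3B, which binds the LC3-interacting stretch of mitophagy receptors, had 12.13, 11.97 and 12.05 on the GDC-0941 arrays, against 11.30, 11.38 and 11.42 on the control arrays, a 1.61-fold rise (adjusted p = 1.32e-05 in limma). GABARAPL1, of the same ATG8 family, rose 1.54-fold (adjusted p = 1.5e-05 in limma). FKBP8 fell by 0.20 (adjusted p = 0.0422 in limma), a call lost with hybridisation control centring, with the mean of its probe sets and without GDC-0941 replicate 1 or 2 or control replicate 2 or 3 (adjusted p 0.0604 to 0.825 in limma). The last list held 8 genes drawn up as other proteins with a BH3-like stretch, a trait not established for BNIP2 and BNIPL. Of these 8, 4 rose and 1 fell, with a median difference of 0.27 (6 and none with hybridisation control centring). Of all genes 12.1% were higher and 15.6% lower. With unmarked probe sets first, 2 of the 8 rose. BNIPL and MOAP1, a BAX-binding protein, rose 1.44-fold each (adjusted p = 5.28e-05 and 8.69e-05 in limma) and BNIP2 1.37-fold (adjusted p = 0.000356 in limma), the last call being lost on its brightest unmarked probe set (difference 0.05, adjusted p = 0.626 in limma).

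**Figure D5:**
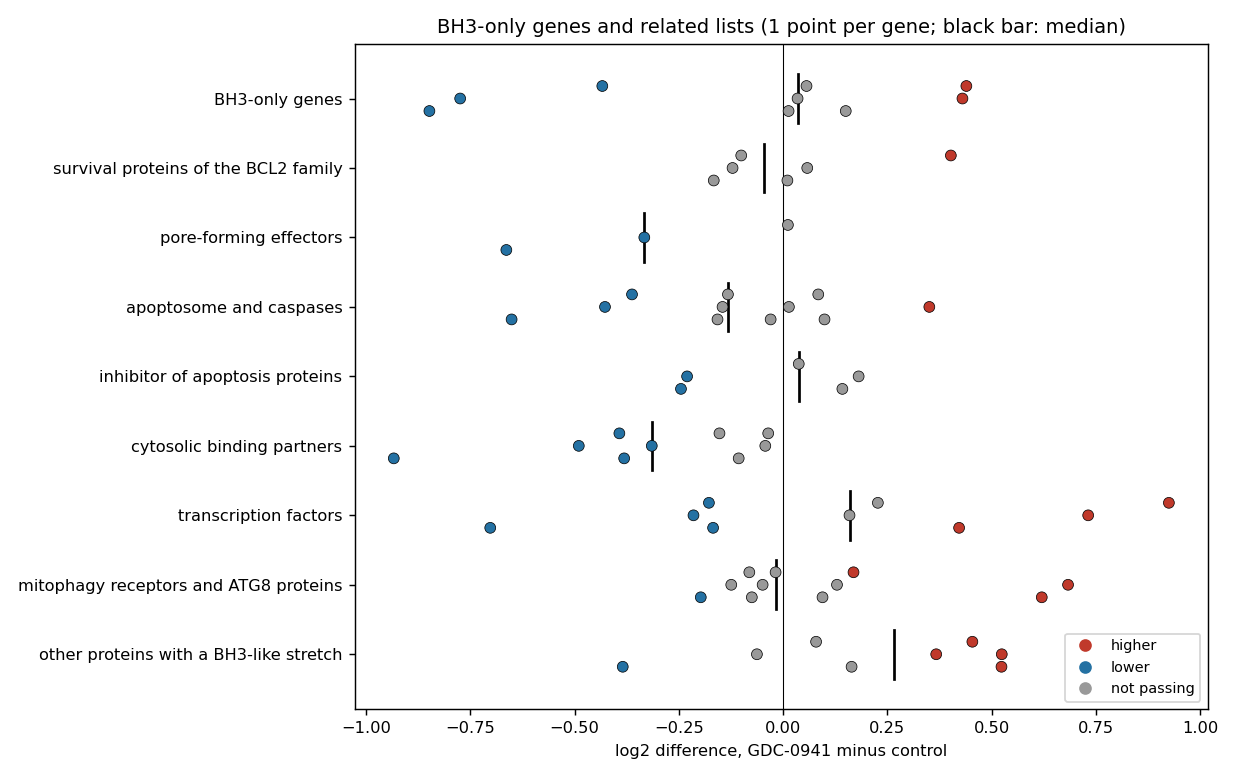
Log2 difference, GDC-0941 minus control (horizontal axis), of the 9 measured BH3-only genes (top) and of the 62 genes in 8 related lists, 1 point per gene by its brightest probe set, with the list median as a black bar. Red points rose, blue points fell and grey points did not pass an adjusted p under 0.05; the BH3-only genes hold points on both sides, and no cytosolic binding partner is red.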

How the data were processed

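The authors deposited log2 signals of 54675 probe sets, 1 column per array, made with RMA per the submitters' processing notes; the sources used here do not give its version, and the log2 scale was read from the range of the values. Symbols were updated through the Entrez identifier with the RefSeq table of GRCh38.p14 for 41037 of 41091 probe sets naming 1 gene, and 62 manufacturer's controls were left out. GDC-0941 was compared with control using limma 3.58.1 in R 4.3.3 (lmFit, eBayes, two-sided, no pairing, no filter on dim probe sets) over all 54613 probe sets and, by the brightest probe set, over 19775 genes, with Benjamini-Hochberg adjustment and a threshold of 0.05. The fit was tested on simulated data. With 3 arrays in each group, their number limits the precision. Members, lists and alternatives were chosen with earlier results of these data known. Each related list is named by its 3 called members with the largest change, or, with none called, the one with the smallest p; other names are said to be chosen after their values were seen. Alternatives were each array left out, a replicate block, other normalizations, a variance trend, a level filter, an adjusted p of 0.01 and other choices of probe set. Figures were drawn with matplotlib 3.10.9.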

Additional observations from a re-analysis of the deposited data

How the results depend on the processing

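The 3 genes that fell and 2 that rose by their brightest probe set kept direction and call under every alternative run for them. Taking first the probe sets without a mark of matching several transcripts changed the probe set of BID alone among these: both PMAIP1 probe sets carry the mark, and the brightest of BAD, BMF and BNIP3L carry none. Averaging probe sets could not change BMF, which has 1. HRK, below the median level, gave no value under the level filter. Over the 6 fits leaving out 1 array the differences were -0.89 to -0.81 for BID, -0.82 to -0.74 for PMAIP1, -0.49 to -0.34 for BAD, 0.40 to 0.48 for BMF and 0.41 to 0.47 for BNIP3L. Fitted and adjusted over genes, BCL2L11 did not pass in these 6 fits (adjusted p 0.0663 to 0.209 in limma). Over genes it did pass with hybridisation control centring (difference 0.32) and with a variance trend (adjusted p = 0.0489 in limma). The same held among genes above the median level (adjusted p = 0.0432 in limma). BCL2L11 also passed over genes with unmarked probe sets first (difference 0.53) and with the mean of its probe sets (difference 0.26). Adjusted over probe sets instead, its brightest probe set passed with hybridisation control centring. With the variance trend or the level filter that probe set did not pass. With only probe sets that carry no mark of matching several transcripts, 3 member probe sets rose and 3 fell; fewer probe sets enter that count. Hybridisation control centring gave 12875 higher and 1445 lower over all probe sets (89.9% of calls higher, 47.3% without it), 5688 and 895 over all genes (86.4% against 43.7%), and 22 and 6 in the related lists; it shifts all genes of an array by the same amount. An adjusted p under 0.01 gave 2937 and 3167 over all probe sets, a stricter threshold by construction. Replicate numbers are shared by both groups. Correlations of deviations were -0.34, 0.14 and -0.03 between same-numbered arrays and -0.36 to 0.35 between differently numbered ones. With 3 arrays a side, these values cannot tell whether same-numbered arrays shared a culture or batch. With the replicate number as a block, 5 member probe sets rose and 7 fell, and 2 and 3 genes by brightest probe set; over all genes 2151 rose and 2781 fell. Of 240 counts for single related lists under the alternatives, 202 equalled the main count or stayed within 1.5 times it. Counts of 0 that stayed at 0 are among these 202. Signal limits the 9 member probe sets below the median level, for which presence was not called. They are all those of HRK, the second one of PMAIP1, 222343_at and 208536_s_at of BCL2L11, and 232660_at of BAD.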
